A study of Mus musculus with 6 samples.

Results

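Cluster 7 was a group of 102 cells, 0.606% of the 16822 cells that the authors kept in their table of single cells, and its members were taken as every cell with that cluster number. Its markers were those of the red cell lineage, namely Car1 (carbonic anhydrase 1), Klf1 and Gata1 (erythroid transcription factors). The cells came from C57BL/6J mice of 8 to 12 weeks carrying the CD45.1 allele, and all were taken from bone marrow at day 21. AML mice had been given 1000000 cells of C1498, a CD45.2 mouse acute myeloid leukemia (AML) line, without conditioning, and control mice had been given PBS. Sorting for CD45.1+ Lin- cKit+ Sca1+ cells (LSK cells, the compartment of stem and multipotent progenitor cells) kept the host's own cells. Each group had 3 libraries made with droplet single-cell RNA sequencing, in which every captured transcript is counted once by its molecular identifier (UMI). Whether each library came from a separate mouse was not established here, so p-values measure only the spread between these libraries, which may be technical.

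Red cells form from multipotent progenitors through a committed stage at which stem cell and myeloid genes are switched off and a set of erythroid genes is switched on. Gata1, Tal1, Zfpm1 and Lmo2 act together at erythroid genes, Klf1 follows, and the receptor for erythropoietin (Epor), blood group proteins and heme synthesis enzymes appear before the bulk of the globins. Committed erythroid progenitors normally carry cKit and little or no Sca1, so that most of them fall outside an LSK gate.

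Cluster 7 held 34 of 6838 kept cells in PBS replicate 1, which is 0.497% (exact Clopper-Pearson 95% interval 0.345 to 0.694%). PBS replicate 2 held 3 of 934 cells (0.321%, 0.0663 to 0.936%) and PBS replicate 3 held 42 of 4398 cells (0.955%, 0.689 to 1.29%). AML replicate 1 held 2 of 693 cells (0.289%, 0.0350 to 1.04%) and AML replicate 3 held 21 of 3959 cells (0.530%, 0.329 to 0.810%). The table held no cell of AML replicate 2. These intervals cover counting error only. Summed over its cells, cluster 7 carried 291038, 56126 and 351099 UMIs in PBS replicates 1 to 3, and 5255 and 140667 in AML replicates 1 and 3, so AML replicate 1 and PBS replicate 2 add little, and most values for AML replicate 1 rest on a few UMIs, Car1 with 51 excepted. The description per library therefore uses the 3 libraries with at least 5 cells of the cluster, PBS replicates 1 and 3 and AML replicate 3.

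Some libraries shared cell barcodes, and a few cells of the cluster stood apart. Of the 17055 barcodes of AML replicate 2, 6900 were also found in another library. Among its 26 barcodes with 3 or more Car1 UMIs, 24 had 3 or more Car1 UMIs in another library as well, where the barcode held 14.6 to 54.1 times as many UMIs, and 20 of them were cluster 7 cells there. Conversely, 53 of the 102 cluster 7 barcodes also occurred in AML replicate 2, with a median of 2.82% of their UMIs (range 1.78 to 6.94%). No barcode was a cluster 7 cell in 2 libraries, and 1 cluster 7 cell had a barcode with more UMIs in another library. Only 106 barcodes of AML replicate 2 had 1000 or more detected genes with no more than 10% mitochondrial UMIs, and its Car1 counts are not read as cells of that library. PBS replicates 1 and 2 shared 631 barcodes, of which 5 were kept cells in both. These 631 were 50.2% of the 1256 barcodes of PBS replicate 2, and 1223 (97.4%) of its barcodes also occurred in AML replicate 2.

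Within the cluster, 4 cells held over 100 globin UMIs. In AML replicate 3 these were cells with 1636 globin UMIs of 5771 in all, 1431 of 8731 and 114 of 16368, and in PBS replicate 3 a cell with 627 of 17544. The PBS cell also carried 7446 immunoglobulin UMIs, against 61 in the other 101 cells together, and it lay beside the immunoglobulin-rich cells on the authors' embedding, far from the rest of cluster 7. A further PBS replicate 3 cell held 83 Elane and 75 Prtn3 UMIs, 2 neutrophil protease genes, beside 74 Car1 UMIs. All Elane UMIs of that library's cluster 7 cells were in this cell. Only 1 of the 102 cells was among the 5% of kept cells with the highest simulated-doublet score.

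**Figure D1:**
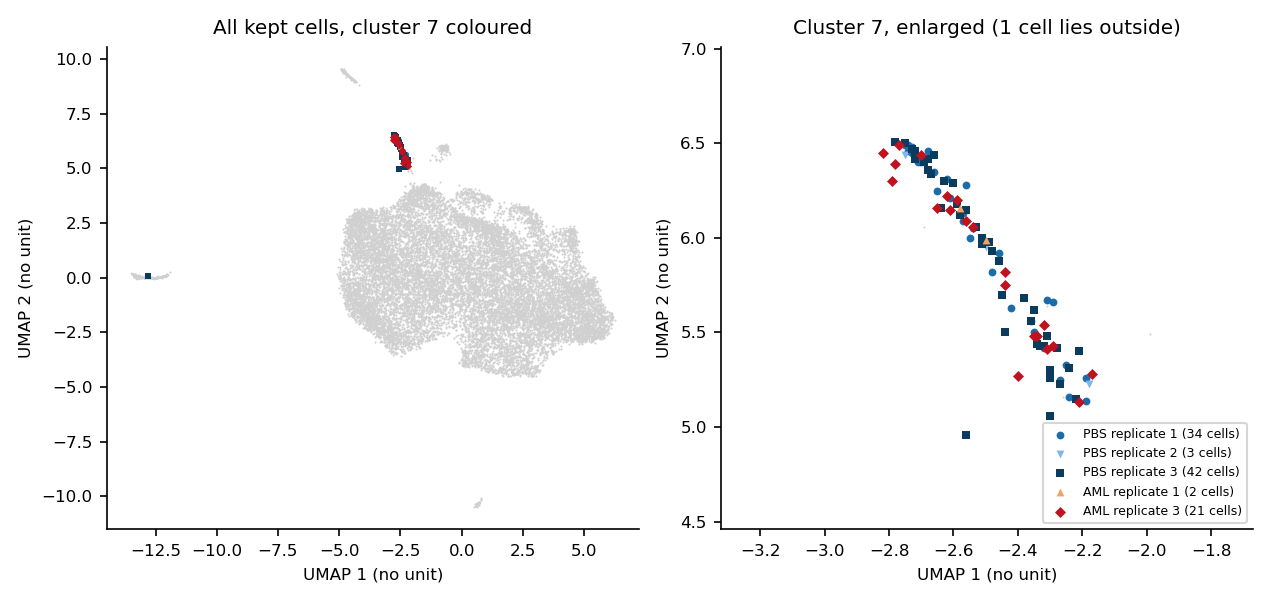
Position of the 16822 kept cells on the authors' embedding (UMAP 1 against UMAP 2, no unit), with cluster 7 coloured by library on the left and enlarged on the right. All but 1 of the 102 cells form a narrow band, and this band holds cells of all 5 libraries.

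All 3 markers of the label were present. Car1 (chr3:14766216-14808368, minus strand, GRCm38) had a UMI in 100 of the 102 cells, with a median of 30 and a highest value of 339 UMIs per cell. Among the 16720 other kept cells, 121 (0.724%) had a Car1 UMI, 15 had 3 or more, and the highest held 18. Cluster 7 had a median of 6380 UMIs per cell and the other clusters medians of 3516 to 8667 UMIs. In all, 6779 of the 7010 Car1 UMIs of the kept cells (96.7%) were in cluster 7.

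As UMIs per 1000000 UMIs (CPM), Car1 reached 9054, 5808 and 7693 in cluster 7 of PBS replicates 1 to 3 and 9705 and 7578 in AML replicates 1 and 3. In the other kept cells of the same libraries it lay between 0.483 and 4.07 CPM, and the next highest cluster, cluster 8, had 35.4 CPM. All 5 libraries thus showed Car1 high, with no overlap between cluster 7 and the other cells. The log2 ratio of cluster 7 over the other cells of its library, with 10 CPM added to both, was 9.30 ± 0.22 (SD, n = 3 libraries). These ratios describe cells that were clustered on the same genes and are given with no test.

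Klf1 (chr8:84901928-84905291, plus strand), which switches on most late erythroid genes, had a UMI in 52 cells of cluster 7 and in 0.670% of the other cells. Its level was 172, 285 and 85.4 CPM in PBS replicates 1 to 3, 0 in AML replicate 1 and 128 CPM in AML replicate 3, against at most 1.55 CPM in the other cells of any library. Gata1 (chrX:7959260-7978071, minus strand) had a UMI in 57 cells and in 2.21% of the others, at 103, 160, 65.5, 190 and 142 CPM in the same order, of which the AML replicate 1 value is 1 UMI. The other cells had 2.58 to 8.58 CPM of Gata1, and clusters 0 and 5, with 13.3 and 8.16 CPM, were the next highest. The log2 ratios were 3.56 ± 0.46 for Klf1 and 2.87 ± 0.55 for Gata1 (SD, n = 3 libraries). Both Klf1 and Gata1 were found in 37 cells, all of which also held Car1, and 1 cell held none of the 3.

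The promoters of the 2 transcription factors are shown because erythroid genes carry binding motifs for both factors, and these are the genes whose level marks the cluster. RefSeq sequences of 250 bases before to 50 bases after the start site (GRCm38.p6) were searched on both strands for AGATAA and TGATAA, the GATA motif, and for CACACCC and CCCACCC, the KLF1 motif. The Klf1 promoter lies at chr8:84901732-84902031 on the plus strand and the Gata1 promoter at chrX:7967861-7968160 on the minus strand, and capitals mark the motifs, with TTATCA being TGATAA read on the other strand.
Klf1: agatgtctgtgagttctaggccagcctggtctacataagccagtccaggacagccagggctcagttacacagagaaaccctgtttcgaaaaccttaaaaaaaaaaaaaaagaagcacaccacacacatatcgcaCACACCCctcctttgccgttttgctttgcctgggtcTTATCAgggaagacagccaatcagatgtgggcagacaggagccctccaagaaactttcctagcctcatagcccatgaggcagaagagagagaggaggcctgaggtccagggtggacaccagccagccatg
Gata1: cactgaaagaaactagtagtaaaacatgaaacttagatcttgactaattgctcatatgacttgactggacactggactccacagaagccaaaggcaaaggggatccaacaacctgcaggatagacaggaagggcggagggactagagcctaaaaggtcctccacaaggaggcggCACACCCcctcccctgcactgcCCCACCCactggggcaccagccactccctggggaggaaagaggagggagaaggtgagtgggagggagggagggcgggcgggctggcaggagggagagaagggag
The Klf1 window held 1 GATA and 1 KLF1 motif, and the Gata1 window 2 KLF1 motifs. Of the 25 leading genes described next, 20 had an entry, with 28 promoters between them. The GATA motif stood in 6 of the 28, those of Rhd, Ermap, Klf1, Ces2g and Sphk1, and in 18.6% of all 32851 promoters. The KLF1 motif stood in 12 of the 28, from 9 genes, and in 23.7% of all promoters. Both were found in 4 of the 28, from Ermap, Klf1 and Sphk1, and in 3.34% of all. These are matches of letters, with no evidence here of binding.

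The 25 leading genes, those with the highest mean log2 ratio among genes with a UMI in at least 20% of the cells, were mostly genes of the red cell membrane, heme handling and erythroid control. A cluster 7 cell held a UMI of 11 of the 25 at the median (range 3 to 24), whereas the median of the other kept cells was 0 and the highest 11. At least 5 of them were found in 93 of the 102 cells and in 60 of the 16720 others. After Car1 came Gm15915, a noncoding transcript that overlaps Ntn4 on the opposite strand, with 302, 303 and 273 CPM in PBS replicates 1 to 3, 0 in AML replicate 1 and 355 CPM in AML replicate 3, against at most 1.97 CPM in other cells. The overlapping Ntn4 had only 8 UMIs in the cluster. Slc25a21, a mitochondrial carrier, followed at a log2 ratio of 4.61 ± 0.39 (SD, n = 3 libraries) with 213, 71.3, 202, 190 and 327 CPM across the 5 libraries.

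**Figure D2:**
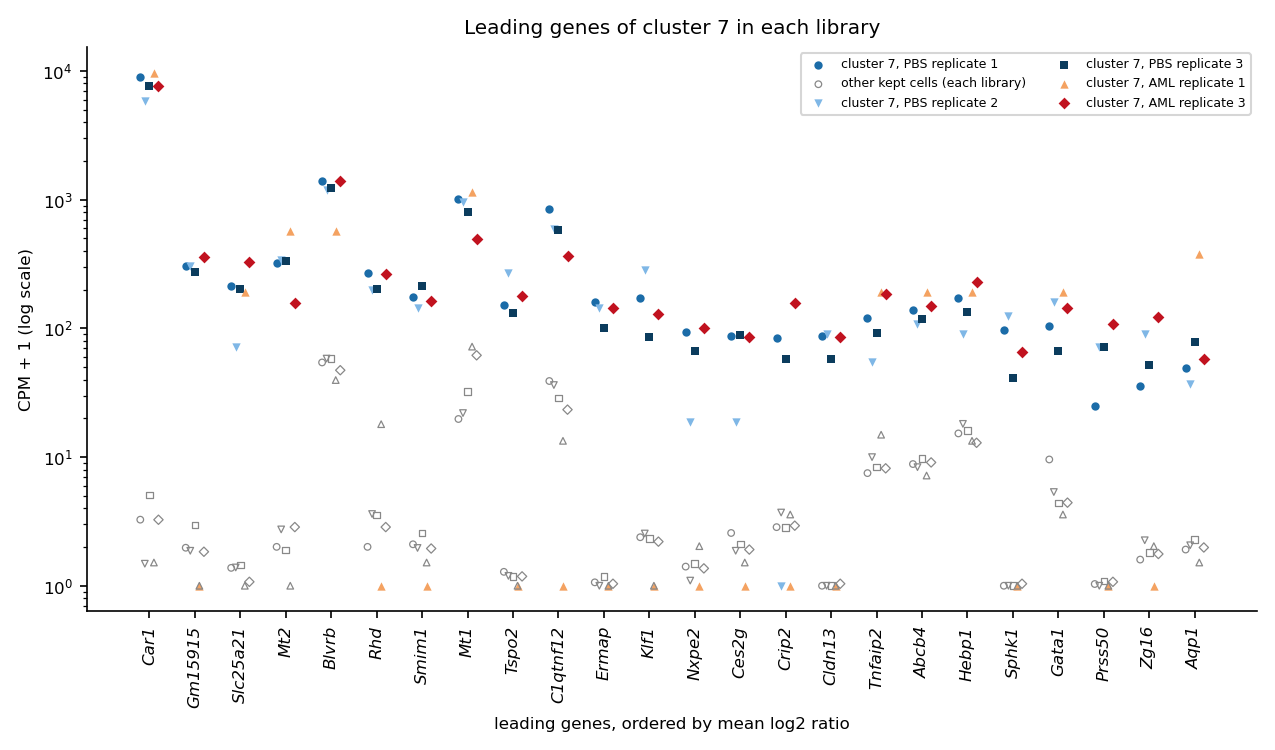
CPM + 1 (log axis) of leading genes in cluster 7 (filled) and in the other kept cells (open) of each of the 5 libraries. Car1 lies between 5808 and 9705 CPM in cluster 7 of all 5 libraries, and symbols at 1 are genes with no UMI, most of them in the 2 cells of AML replicate 1.

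Blvrb, the reductase of biliverdin and flavins that abounds in red cells, was the most abundant leading gene after Car1. It had 1385, 1194 and 1233 CPM in PBS replicates 1 to 3, 571 in AML replicate 1 and 1400 in AML replicate 3, against 38.7 to 57.2 CPM in other cells, and had a UMI in 92 cells. The metallothioneins Mt1 and Mt2, which bind zinc and copper, were also among the leaders. Mt1 had 1014, 962, 803, 1142 and 498 CPM, and Mt2 320, 339, 330, 571 and 156 CPM, in the same order. For both genes AML replicate 3 was the lowest library. A UMI of Mt1 was found in 67 of the 102 cells and one of Mt2 in 36.

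Blood group and surface genes were a further set of leaders. Rhd, the Rh antigen, had 268, 196, 202, 0 and 263 CPM in the 5 libraries and Ermap, which carries the Scianna antigen, 158, 143, 99.7, 0 and 142 CPM, while no other cluster exceeded 4.08 CPM of Rhd and 0.157 CPM of Ermap. By library, the other cells had 1.01 to 2.61 CPM of Rhd except in AML replicate 1, where they had 17.0 CPM and the 2 cluster 7 cells none. Smim1, the Vel antigen (log2 ratio 4.10 ± 0.14), and Aqp1, the water channel (2.65 ± 0.27), were in the same class (SD, n = 3 libraries). Cldn13, a claudin, and Sphk1, a kinase that makes sphingosine 1-phosphate, each had 1 UMI among the 16720 other kept cells and were found in 24 and 33 cells of cluster 7. Mfsd2b, the exporter of that lipid, came just after the 25 at 2.59 ± 0.48.

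A description of gene lists used the share of genes over 2-fold higher, or lower, than in the other cells in all 3 libraries. Of 8328 genes with at least 10 CPM in either set, 136 (1.63%) were higher and 374 (4.49%) lower by this measure, and their median log2 ratio was -0.17. Among the erythroid transcription regulators, 4 of 13 were higher and none lower, with a median log2 ratio of 0.40. Beside Klf1 and Gata1 these were Gfi1b, a repressor needed for red cells and platelets (1.72 ± 0.12), and Zfpm1, the partner of Gata1 (1.48 ± 0.54; SD, n = 3 libraries). Tal1, the factor that nucleates the complex, was at 0.97 ± 0.40. Lmo2, its bridging subunit, had 347, 463 and 313 CPM in PBS replicates 1 to 3 and 190 and 242 CPM in AML replicates 1 and 3, against 762, 808, 555, 327 and 491 CPM in the other cells, and so was lower in each library (-0.97 ± 0.16). Gata2 differed among libraries, at 17.2, 17.8 and 34.2 CPM in PBS and 92.4 CPM in AML replicate 3.

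Erythroid receptors and surface proteins had 11 of 13 genes over 2-fold higher and a median log2 ratio of 2.34. Epor had a UMI in 26 cells, at 65.3, 89.1 and 39.9 CPM in PBS replicates 1 to 3, 0 in AML replicate 1 and 35.5 CPM in AML replicate 3, against at most 1.85 CPM in other cells. The exceptions were Gypc, glycophorin C (0.39 ± 0.11), and Tfrc, the transferrin receptor that supplies iron (0.78 ± 0.71), which had 20.6, 17.8 and 48.4 CPM in PBS and 21.3 CPM in AML replicate 3. A list of carbonic anhydrases and early erythroid enzymes, which also holds Mt2 and Apoe, had all 8 genes higher (median 2.52), among them Car2 with 3030, 1817 and 2133 CPM in PBS and 1990 CPM in AML replicate 3, against 386 to 729 CPM in the other cells of those libraries. Apoe, the lipid carrier, was at 2.06 ± 0.45 (SD, n = 3 libraries).

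Heme synthesis enzymes had 5 of 10 genes over 2-fold higher (median log2 ratio 1.23). Among them were Alad at 2.04 ± 0.09, Cpox at 2.01 ± 0.13 and Urod at 1.56 ± 0.20 (SD, n = 3 libraries). Alad, which makes porphobilinogen, had 309, 356 and 254 CPM in PBS and 313 CPM in AML replicate 3, against 56.3 to 73.5 CPM in other cells of those libraries. The rate-limiting erythroid enzyme Alas2, by contrast, had 6 UMIs in 3 cells, all in AML replicate 3, and its housekeeping paralog Alas1 was at -0.47 ± 0.12. Of 9 iron genes, 1 was over 2-fold higher, namely Glrx5 (1.93 ± 0.07), which passes on iron-sulfur clusters. Mitoferrin, Slc25a37, was at 0.07 ± 1.26.

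Globin UMIs were scarce in most cells. None of the 7 measured globins was over 2-fold higher in all 3 libraries. Of the 3950 globin UMIs in the cluster, 3694 (93.5%) were in the 3 cells named above with 627 or more, and the median cell had 0. A globin UMI was found in 30 cells (29.4%), against 16.2% of the other kept cells. The red cell membrane skeleton list had a median log2 ratio of 0.77, and its summed level was 103, 143 and 128 CPM in PBS replicates 1 to 3, 0 in AML replicate 1 and 206 CPM in AML replicate 3, against 32.7 to 37.3 CPM in the other cells. Of its 9 genes, 2 were higher, among them Ank1 (ankyrin; 2.31 ± 0.22), while the anion exchanger Slc4a1 had UMIs in 3 cells and Epb42 in 1.

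**Figure D3:**
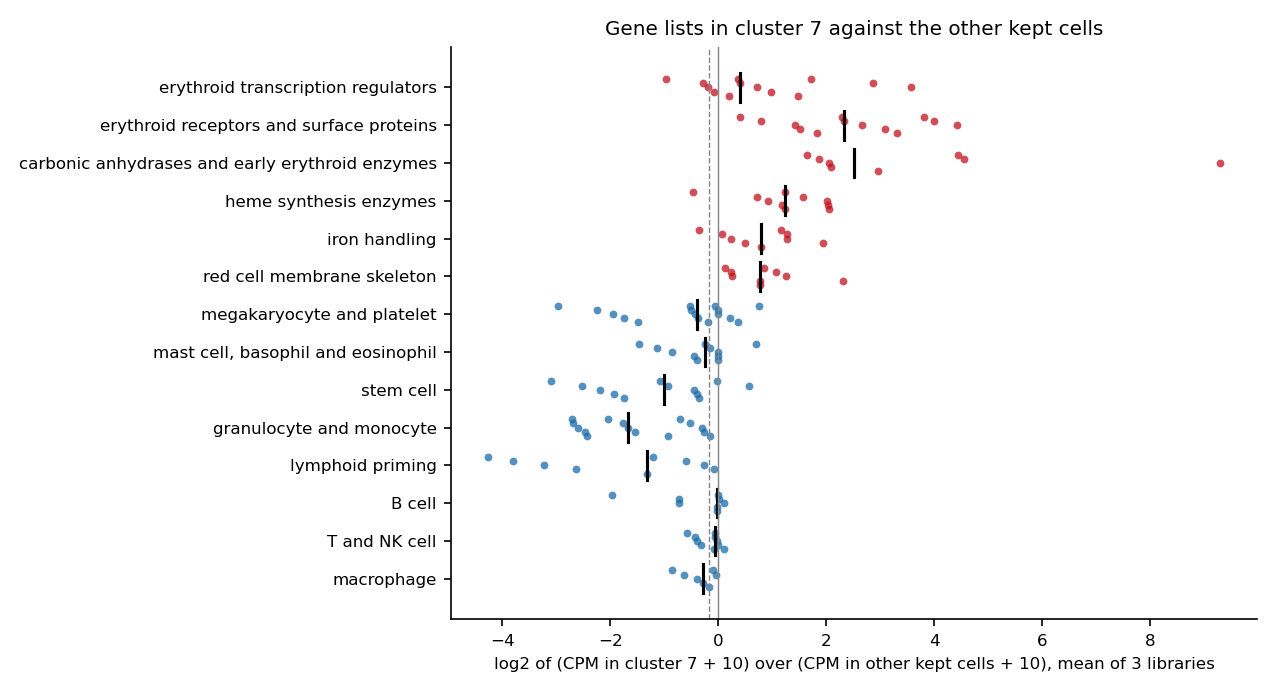
Mean log2 ratio (CPM + 10) of cluster 7 over the other kept cells in 3 libraries, 1 point per gene, with a bar at the median of each list. The dashed line marks -0.17, the median of the 8328 genes with at least 10 CPM, and the globins are left out because 3 cells hold most of their UMIs.

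None of the marker lists of other lineages had a gene over 2-fold higher in all 3 libraries. Megakaryocyte and platelet genes, the nearest sister lineage, had 0 of 16 genes over 2-fold higher and 4 lower (median -0.40). Platelet factor Pf4 had 5 UMIs, or 5.92 CPM, in the whole cluster against 102 CPM in other cells and 275 CPM in cluster 0. The summed CPM of the list was 57.0 to 107 in the PBS libraries and 78.2 in AML replicate 3, against 322 to 399 CPM in other cells. Mast cell, basophil and eosinophil genes had none of 11 higher or lower (median -0.24). B cell genes had 1 of 8 lower, Cd79b, and macrophage genes none of 7. T and NK cell genes were near the level of the other cells, with none of 10 higher or lower and a median log2 ratio of -0.07. Their summed CPM was 85.9, 178 and 171 in PBS replicates 1 to 3 and 142 in AML replicate 3, against 179, 161, 186 and 197 CPM in the other cells. Most of this sum was Nkg7, a granule protein of killer cells, with a UMI in 42.2% of cluster 7 cells and 44.8% of the others. Several genes of these lists had no UMI in cluster 7, as did 9506 of all 21591 genes with a UMI in the kept cells.

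Stem cell genes had 5 of 12 over 2-fold lower and none higher (median -1.004). Hlf, a transcription factor of stem cells, had 4 UMIs in 3 cells, at 6.87, 0 and 2.85 CPM in PBS and 7.11 CPM in AML replicate 3, against 94.0 to 142 CPM in other cells of those libraries. Mecom (-2.53 ± 0.57), Meis1 (-2.19 ± 1.00) and Hoxa9 (-1.75 ± 0.25; SD, n = 3 libraries) were lower as well, and Procr had no UMI. Granulocyte and monocyte genes had 8 of 15 lower (median -1.67), with Mpo found in 3 cells and Csf1r in none, and Prtn3 had a UMI in 34.3% of the cells against 84.1% of the other kept cells. The part of free RNA in such shares was not tested. Of 9 lymphoid priming genes 3 were lower, among them Flt3, the receptor that marks lymphoid-primed progenitors (-3.23 ± 0.16), and Dntt (-3.81 ± 0.56). Cd34, a surface protein lost as progenitors mature, was among the 10 lowest genes at -3.63 ± 0.82, with 20.6, 0 and 17.1 CPM in PBS and 0 in AML replicate 3, against 196 to 318 CPM.

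The immunoglobulin genes Ighm and Igkc, with log2 ratios of -4.27 and -4.24, headed the 10 lowest, but their values differed among libraries. Igkc had 72.2, 35.6 and 20086 CPM in cluster 7 of PBS replicates 1 to 3, and 64.0 CPM in AML replicate 3. The PBS replicate 3 value was 33.0 CPM without the single immunoglobulin-rich cell. In the other kept cells Igkc stood at 7499 to 10619 CPM in those libraries, where cluster 6 held by far the most. Clusters 0 to 5 had 67.9 to 127 CPM of Igkc, against 469880 CPM in cluster 6. For Ighm they had 60.6 to 282 CPM, against 73385 CPM. The low ratios of both genes are thus mostly a contrast with cluster 6.

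Transcripts of the sort markers differed in level. Kit, which encodes cKit, had a UMI in 33 cells of cluster 7, at 48.1, 89.1, 37.0, 0 and 107 CPM in PBS replicates 1 to 3 and AML replicates 1 and 3, against 87.4, 82.3, 82.5, 105 and 79.6 CPM in their other cells. Kit was thus lower in some libraries and higher in others, at a log2 ratio of -0.45 ± 0.73 (SD, n = 3 libraries). Ly6a, which encodes Sca1, had a UMI in 15 cells, at 27.5, 17.8, 31.3, 0 and 21.3 CPM in the 5 libraries, against 101, 200, 102, 116 and 204 CPM in their other cells. Each library of at least 5 cells was thus lower in Ly6a, at a log2 ratio of -1.93 ± 0.73 (SD, n = 3 libraries). Transcript counts say nothing of the protein on which the cells were sorted. Ptprc, which encodes CD45, was at -0.91 ± 0.17.

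By the authors' module scores, 88 of the 102 cells were of the MPP2 class (a multipotent progenitor class biased to megakaryocytes and red cells), 7 MPP3, 6 HSC and 1 MPP4. For 31 cells the highest score was within 0.05 of the next. Cluster 7 made up 0.615 to 2.50% of the MPP2 cells of a library. Its summed profile over 7658 genes correlated most with that of cluster 3 (Pearson's r 0.910), the cluster with the highest share of cycling cells, then clusters 1 (0.898), 4 (0.897) and 0 (0.880), and least with cluster 6 (0.760). These are correlations across genes, which are not independent replicates, and cells of the clusters share libraries.

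Most cells of the cluster were assigned to a cycling phase. The authors' table put 28 cells in G1, 37 in S and 37 in G2M, so that 72.5% were in S or G2M (exact 95% interval 62.8 to 80.9%). The share was 73.5% (25 of 34) in PBS replicate 1, 100% (3 of 3) in PBS replicate 2, 69.0% (29 of 42) in PBS replicate 3, 50% (1 of 2) in AML replicate 1 and 76.2% (16 of 21) in AML replicate 3. The other kept cells had 41.6 to 85.4% by library, cluster 3 97.6%, and the other MPP2 cells 87.5 to 93.9%, a class whose score and phase may draw on the same genes. Cluster 7 thus lay above the other cells in each of the 3 libraries with at least 5 of its cells and below the other MPP2 cells in each of them. When every cell was thinned to 2000 UMIs, which left out 205 other cells and none of cluster 7, cluster 7 held 7.05 UMIs of 43 S phase genes and 11.4 of 54 G2M genes. The other kept cells held 5.34 and 8.49, and the other MPP2 cells 7.44 and 16.7.

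No S phase or G2M gene was over 2-fold higher or lower in all 3 libraries, and the list medians were 0.23 and -0.05. Of 12 G1 cyclins, CDKs and inhibitors, Ccne1, which drives entry into S phase, was the exception at 1.85 ± 0.59 (SD, n = 3 libraries), with 61.9, 53.5 and 59.8 CPM in PBS and 35.5 CPM in AML replicate 3, against 4.15 to 10.01 CPM in other cells of those libraries. Ribosome biogenesis and MYC target genes (0 of 11, median 0.49), ribosomal protein genes (0 of 83, median 0.16) and interferon-stimulated genes (0 of 12 higher, 1 lower, median -0.67) showed no such set of higher genes. Myc itself was at -0.61 ± 0.35.

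Cells within the cluster differed along the second axis of the embedding. To describe this, the 101 cells of the band were ordered by that axis into a lower group of 34 cells, a middle group of 34 and an upper group of 33, and the cell lying apart was left out. The embedding was computed from the same expression values, so the contrasts below have no test. The groups also differed in depth, with medians of 3500, 7195 and 12864 UMIs, and in phase. G1 cells numbered 17, 11 and 0, S cells 10, 13 and 13, and G2M cells 7, 10 and 20. In cells thinned to 2000 UMIs, S phase genes had 4.85, 7.68 and 8.64 UMIs per cell. G2M genes had 10.9, 9.03 and 14.4, so they did not rise from the lower to the middle group. All 3 groups held cells of PBS replicates 1, 2 and 3 and of AML replicate 3.

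**Figure D4:**
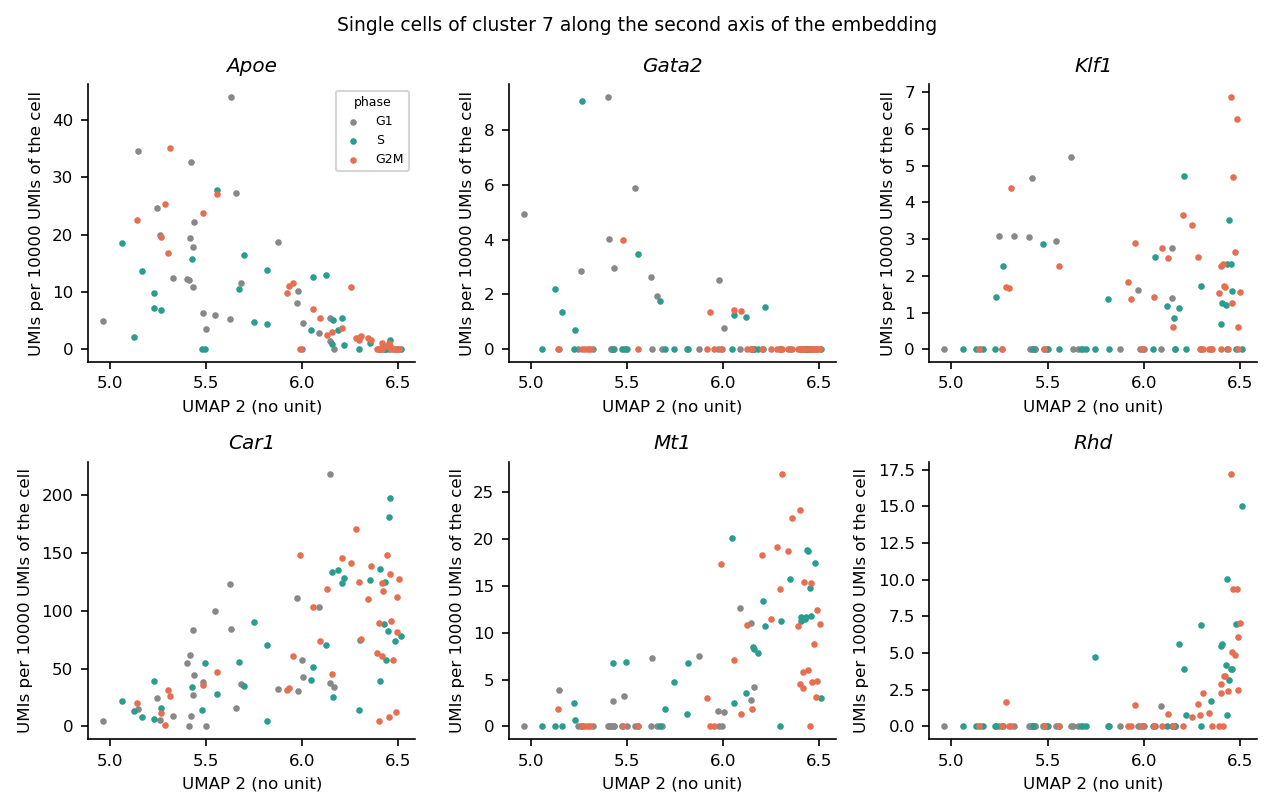
UMIs per 10000 UMIs of the cell for 6 genes in single cells of cluster 7 against the second embedding axis (no unit), coloured by the authors' phase. Apoe and Gata2 are found mainly at low values of the axis, Mt1 and Rhd at high values, Car1 rises along it, and Klf1 is found along its whole length.

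A set of genes led by Apoe was higher at the lower end. Apoe went from 1586 CPM in the lower group to 734 in the middle and 59.6 in the upper group, with a log2 ratio of upper over lower of -4.00 ± 0.14 (SD, n = 3 libraries; 50 CPM added). Gata2 went from 142 to 41.4 to 0 CPM and was found in 13, 10 and 0 cells. Plac8 (1218, 640 and 69.1 CPM), Nkg7 (524, 139 and 2.38 CPM), Vim (-2.81 ± 0.49) and Cdk6, a kinase of the G1 phase (-2.79 ± 0.59), ran the same way, as did Myb (-1.28 ± 0.21).

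Many erythroid surface and heme genes were higher at the upper end. The upper group was higher in all 3 libraries for 8 of 13 receptors and surface proteins, 7 of 10 heme enzymes and 7 of the 8 genes of the list with the carbonic anhydrases and Mt2, where Apoe was the exception, while of 3755 genes with a UMI in at least 20% of the cells 963 were higher and 832 lower in all 3. The other surface and heme genes had no common sign, among them Gypc (-0.41 ± 0.80; SD, n = 3 libraries) and Alas1. Rhd went from 7.08 to 64.0 to 410 CPM (3.09 ± 0.16; SD, n = 3 libraries), and it was 432, 341 and 611 CPM in the upper cells of PBS replicates 1 and 3 and AML replicate 3. Mt2 went from 0 to 86.5 to 548 CPM, Mt1 from 92.0 to 572 to 1292 CPM and C1qtnf12, a secreted factor, from 28.3 to 135 to 1173 CPM. Blvrb (2.47 ± 0.56), Car2 (2.47 ± 0.25), Tmem14c, a porphyrin carrier of mitochondria (2.56 ± 0.26), and Glrx5 (2.55 ± 1.09) were higher as well. Car1 went from 2902 to 7748 to 10228 CPM. Per 2000 UMIs it was 6.53, 13.97 and 18.7 in thinned cells, and Mt1 0.147, 1.06 and 2.30, so the order of both held at equal depth. Apoe kept its opposite order, at 3.32, 1.82 and 0.0606, and no other single gene was compared along the axis at equal depth.

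The erythroid transcription regulators did not run this way. None of the 13 was higher in the upper group in all 3 libraries and 6 were lower, namely Gata2, Nfe2 (-1.48 ± 0.51), Myb, Cbfa2t3 (-1.18 ± 0.24), Lmo2 (-1.17 ± 0.57) and Tal1 (-0.56 ± 0.46; SD, n = 3 libraries). Klf1 had 113, 135 and 148 CPM in the lower, middle and upper group (0.22 ± 0.21) and Gata1 a log2 ratio of -0.29 ± 0.45, both SD over n = 3 libraries. UMIs of both Apoe and Mt2 were found in 0, 6 and 13 cells of the lower, middle and upper group. With a bound of 3 UMIs, 50 cells held Apoe, 28 held Mt2 and 3 held both.

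Whether the genes that lead cluster 7 also go with Car1 in barcodes outside the authors' table was tested. After the data had been seen, barcodes with 1000 or more detected genes, no more than 10% mitochondrial UMIs and no more UMIs under the same barcode elsewhere were split into those with 3 or more Car1 UMIs and those with none. There were 11, 14 and 8 Car1 barcodes and 1785, 1375 and 1093 Car1-free ones in PBS replicates 1 and 3 and AML replicate 3, with median UMIs of 4546, 4464 and 7242 against 4137, 4515 and 5367. The sources used here do not say why these barcodes were left out. Counts were summed per library and set and compared with edgeR's quasi-likelihood F test with a term per library, leaving Car1 out.

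Of 10315 genes, 99 (0.96%) were higher and 321 (3.11%) lower in Car1 barcodes at a Benjamini-Hochberg adjusted p under 0.05, and the median gene was at a log2 value of -0.43. With library sizes alone as scaling, 159 were higher and 212 lower with a median of -0.27, and DESeq2 called 90 and 62 with a median of -0.26. Without PBS replicate 1, PBS replicate 3 or AML replicate 3, 271, 158 and 225 genes were called. Of the 24 leading genes other than Car1, 21 passed the filter on low counts and 20 were higher. Many of these were near 0 in Car1-free barcodes and passed only through the Car1 barcodes, so this count is not support by itself.

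Some genes with UMIs in many Car1-free barcodes are therefore given by library. Blvrb had 844, 778 and 1409 CPM in Car1 barcodes of the 3 libraries against 51.1, 55.3 and 46.2 CPM in Car1-free ones (log2 4.14 ± 0.19, SE; edgeR adjusted p 1.48e-96). Mt1 had 545, 1196 and 1213 against 14.01, 29.3 and 26.5 CPM (5.24 ± 0.22; edgeR adjusted p 5.9e-119). Both genes were higher in 3 of 3 libraries with no overlap. C1qtnf12 varied, with 52.7, 167 and 796 against 44.3, 31.0 and 32.9 CPM (2.95 ± 0.32; edgeR adjusted p 5.18e-17), and its PBS replicate 1 value rests on 3 UMIs. Car2 likewise differed little in PBS replicate 1, with 738, 1124 and 2427 against 691, 587 and 482 CPM (1.098 ± 0.139; edgeR adjusted p 8.94e-13). Of its list 4 of 7 tested genes passed, Mt2 among them from near 0 in Car1-free barcodes, and Prdx2, a peroxiredoxin, did not (0.42 ± 0.15; edgeR adjusted p 0.0808). Of the heme enzymes 3 of 9 tested rose, among them Alad (1.40 ± 0.30; edgeR adjusted p 0.000185), and of the iron genes 1 of 9, Glrx5 (1.20 ± 0.20; edgeR adjusted p 3.69e-07). Apoe rose as well, with 1371, 514 and 222 against 122, 81.7 and 71.6 CPM (2.61 ± 0.21; edgeR adjusted p 1.24e-32).

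The 2 marker transcription factors were near 0 in Car1-free barcodes and passed the filter only through the Car1 barcodes, so they are described with no test. Klf1 had 70.3, 108 and 91.3 CPM against 0.50, 0.74 and 0.94 CPM, and Gata1 35.2, 35.9 and 91.3 against 3.60, 0.89 and 2.18 CPM. In Car1 barcodes these were 4, 9 and 7 UMIs of Klf1 and 2, 3 and 7 of Gata1. Among the other regulators Gata2 rose, at 123, 108 and 52.2 against 25.8, 15.5 and 24.2 CPM (1.97 ± 0.49, SE; edgeR adjusted p 0.00267), and Lmo2 fell (-1.48 ± 0.20; edgeR adjusted p 2.75e-11). Hebp1 was the 1 tested leading gene that did not pass (0.99 ± 0.70; edgeR adjusted p 0.579), and no globin passed.

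**Figure D5:**
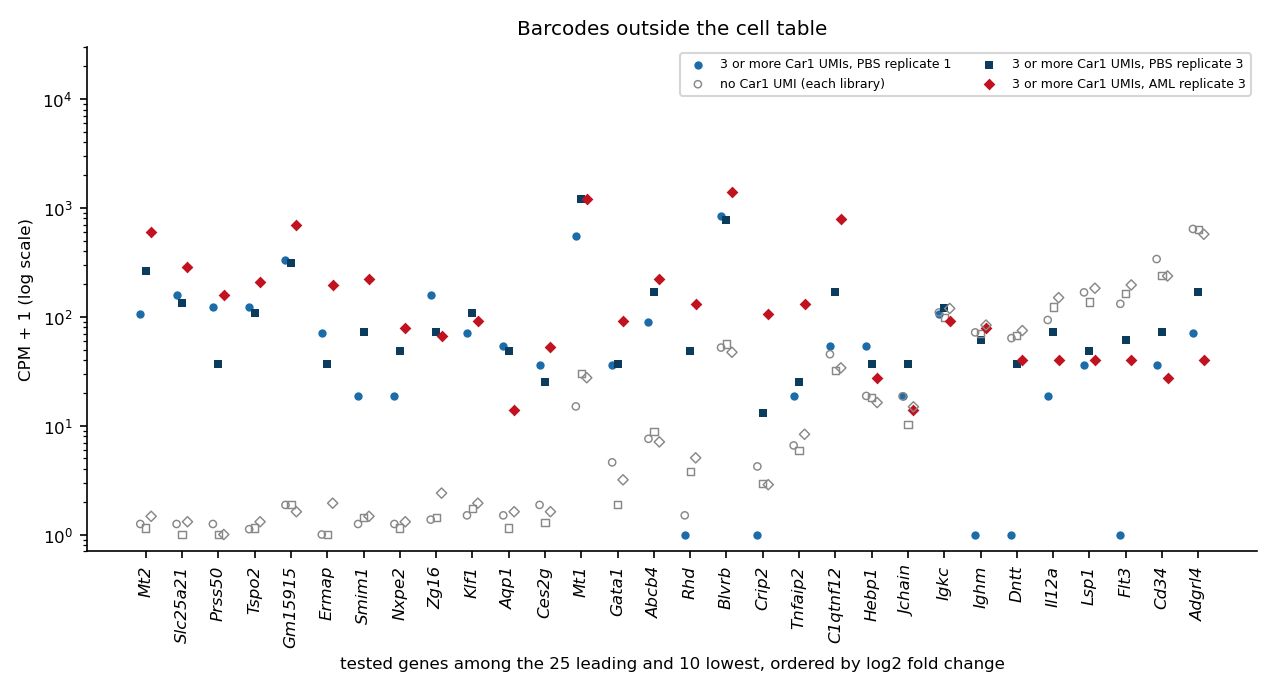
CPM + 1 (log axis) of tested genes among the 25 leading and 10 lowest genes of cluster 7 in barcodes outside the authors' table, for barcodes with 3 or more Car1 UMIs (filled) and with none (open) in each of 3 libraries. Blvrb and Mt1 lie higher in the Car1 barcodes of all 3 libraries, and Cd34 and Adgrl4 lower.

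Some of the genes low in cluster 7 were low in these barcodes as well. Cd34 had 35.2, 71.8 and 26.1 CPM in Car1 barcodes against 338, 240 and 236 CPM in Car1-free ones (-2.68 ± 0.35, SE; edgeR adjusted p 7.86e-12). Adgrl4, an adhesion receptor, fell by 2.84 ± 0.25 on the log2 scale (edgeR adjusted p 5.66e-27) and Flt3 by 2.34 ± 0.42 (edgeR adjusted p 2.74e-06). Of the 9 tested genes among the 10 lowest, 5 fell, while Igkc, Ighm, Jchain and Dntt did not pass. Of 12 stem cell genes 9 were tested and 5 fell, namely Mecom, Hlf, Meis1, Hoxa9 and Ly6a, which had 70.3, 35.9 and 104 against 102, 107 and 239 CPM (-1.29 ± 0.36; edgeR adjusted p 0.0146). Of 15 granulocyte and monocyte genes 10 were tested and 4 fell, with no Mpo or Ctsg UMI in any Car1 barcode, and Plek and Fli1 fell among 7 tested megakaryocyte genes.

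The study's main comparison, AML against PBS, was made within cluster 7 as far as its few cells allowed. In simulated data its fit recovered 53.7% of log2 changes of 2 and 67% of those of 3. A gene that was not called may therefore still differ. Of the libraries with at least 5 cells, 2 were PBS and 1 was AML, so the spread came from PBS replicates 1 and 3 alone with 1 residual degree of freedom, and AML replicate 3 was assumed to vary like them. edgeR called 11 of 4478 genes, 6 higher (0.134%) and 5 lower (0.112%), with 282 at an unadjusted p under 0.05. DESeq2 called 0, with 17 at an unadjusted p under 0.05. None of the 25 leading genes was called. Car1 had a log2 fold change of AML over PBS of -0.21 ± 0.85 (edgeR adjusted p 0.975), Klf1 of -0.04 ± 0.45 (0.992) and Gata1 of 0.70 ± 0.46 (0.885; SE throughout). With every library of at least 1 cell 7 genes were called, and leaving out PBS replicate 1 or 3 from that set left 0 and leaving out AML replicate 3 gave 50.

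Most of the 11 calls rested on the cells that stood apart. The 4 globins Hbb-bt, Hbb-bs, Hba-a1 and Hba-a2 rose by 4.13 to 4.32 on the log2 scale, and Hbb-bs had 82.5, 985 and 10991 CPM in PBS replicates 1 and 3 and AML replicate 3. Without the 4 cells of over 100 globin UMIs it had 82.5, 57.0 and 9.11 CPM and did not pass (-2.95, edgeR adjusted p 0.504). Adult globins of near-identical sequence may share reads. Igkc, Ighm and Jchain were lower in AML replicate 3 than in PBS replicate 3, where nearly all immunoglobulin UMIs were in the 1 cell described above. Without the 4 globin-rich cells, of which it is one, Igkc was at -0.01 (edgeR adjusted p 0.997), and Ighm and Jchain were not tested. For Elane the groups overlapped, as PBS replicate 1 had no UMI and AML replicate 3 had 1, and the 83 UMIs of PBS replicate 3 were all in 1 cell. Without the 4 globin-rich cells 3 genes were called, among them St6galnac3 and Elane, whose cell is not one of the 4.

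Among the interferon response genes that the study names, Irf7, a driver of that response, had 48.1 and 59.8 CPM in PBS and 270 CPM in AML replicate 3 (2.22 ± 0.42, SE; edgeR adjusted p 7.71e-05). PBS replicate 2 had 107 CPM from 6 UMIs and AML replicate 1 190 CPM from 1 UMI. Of the 38 Irf7 UMIs in AML replicate 3, 25 were in its 3 globin-rich cells, and without these the level was 118 CPM and the call was lost (0.96, edgeR adjusted p 0.759). Isg15 had 99.6 and 151 CPM in PBS and 370 CPM in AML replicate 3 (1.45 ± 0.39; edgeR adjusted p 0.0772), and 27 of its 52 UMIs there were in the same cells. Irf8 and Cxcl10 had at most 2 UMIs in any library.

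St6galnac3, a sialyltransferase gene, had 37.8 and 14.2 CPM in PBS and 156 CPM in AML replicate 3 (2.55 ± 0.55, SE; edgeR adjusted p 0.00144), and still passed without the globin-rich cells (2.55, edgeR adjusted p 0.0285). It rested on 11, 5 and 22 UMIs and did not pass under DESeq2. Lgals1, galectin 1, had 44.7 and 91.1 CPM in PBS and no UMI in AML replicate 3 (edgeR adjusted p 0.0202). The call was lost without the globin-rich cells (edgeR adjusted p 0.0957), which held no Lgals1 UMI, with library sizes alone (0.0998), with libraries of at least 1 cell (0.121) and under DESeq2.

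Whether the AML effect in cluster 7 differed from that in the other kept cells was tested as an interaction over the same 3 libraries with edgeR. AML replicate 3 was again the only AML library, so the SE and p-values below do not measure a spread between AML libraries. In simulated data the interaction fit recovered only 10.4% of log2 changes of 2 and 33.3% of those of 3. Genes below that did not pass are therefore not shown to have the same effect in both sets. Of 13597 genes, 11 (0.0809%) had a higher and 53 (0.39%) a lower effect in cluster 7. The median gene was at -0.19, and with library sizes alone as scaling 14 were higher and 10 lower with a median of -0.04. Mt1 had 1014 and 803 CPM in PBS and 498 CPM in AML replicate 3 within cluster 7, but 18.8 and 31.3 CPM in PBS and 60.7 CPM in AML replicate 3 among the other cells (difference of log2 fold changes -2.38 ± 0.23, SE; edgeR adjusted p 6.24e-21). AML replicate 1, which was not in this fit, had 1142 CPM of Mt1 in cluster 7 from 6 UMIs. By position along the embedding, AML replicate 3 was lower in Mt1 in the upper group (463 against 1387 and 1364 CPM) but higher in the middle group (820 against 697 and 376 CPM). It had 5 upper cells, of which 3 were the globin-rich cells, and without the globin-rich cells the Mt1 difference was -2.31 (edgeR adjusted p 1.3e-18). With libraries of at least 1 cell but without PBS replicate 1 it did not pass (-2.09; edgeR adjusted p 0.202). Mt2, with 320 and 330 against 156 CPM, differed in the same direction (-2.20 ± 0.47; edgeR adjusted p 0.0022), and did not pass with libraries of at least 1 cell (-1.72; edgeR adjusted p 0.119). In the middle group AML replicate 3 was higher in Mt2 too, at 261.02 against 43.5 and 19.8 CPM. Among Car1 barcodes outside the authors' table, AML replicate 3 was the highest of the 3 libraries in both genes. Mt2 had 600 CPM there against 105 and 263 CPM in PBS replicates 1 and 3, from 46, 6 and 22 UMIs. Mt1 had 1213 against 545 and 1196 CPM. Irf7 (0.98; edgeR adjusted p 0.309), Isg15 (0.22; 1.00), Klf1 (-0.02; 1.00) and Gata1 (1.34; 0.420) did not pass.

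The share of cluster 7 among kept cells was 0.591 ± 0.327% (SD, n = 3) in PBS and 0.410 ± 0.171% (n = 2) in AML, a difference of -0.182 percentage points (exact two-sided permutation p 0.7, smallest possible 0.1). Without PBS replicate 3 the difference was 0.000308. A count that does not use the cluster number took barcodes with UMIs of at least 2 of Klf1, Gata1 and Car1 among those with 1000 or more detected genes and no more than 10% mitochondrial UMIs. These were 46 of 8609, 7 of 1155 and 50 of 5729 in the PBS libraries and 1 of 800, 0 of 106 and 34 of 5062 in AML replicates 1 to 3, of which 71 were cells of cluster 7. The mean share was 0.671 ± 0.178% in PBS and 0.266 ± 0.357% in AML (SD, n = 3 each; difference -0.405, exact two-sided permutation p 0.3, smallest possible 0.1). With barcodes thinned to 2000 UMIs the means were 0.251% and 0.149% (difference -0.102, exact two-sided permutation p 0.4), and without AML replicate 3 the difference was -0.609 (exact two-sided permutation p 0.1, the smallest possible). Without AML replicate 2, whose Car1 counts are not read as its own cells, the AML mean was 0.398% and the difference -0.273 (exact two-sided permutation p 0.5). With 3 counts taken as the bound of a 0, and not an exact interval, the 0 of 106 in AML replicate 2 allows a share of up to 2.83%. That is above the share of every other library. The share of cluster 7 cells in S or G2M was 76.2% in AML replicate 3 and 71.3 ± 3.17% in PBS (SD, n = 2), where an exact permutation test cannot go below 0.333 and gave 0.667. With libraries of at least 1 cell the direction turned, at 63.1% in AML and 80.9% in PBS.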

How the data were processed

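Raw UMI counts per gene and barcode were deposited for 6 libraries, 1 per sample, and the submitters' processing notes name Cell Ranger 7.0.1, Seurat 4.3.0, R 4.2.2 and the mouse build GRCm38 (mm10). The authors also deposited a cell table with the count of UMIs and genes, the percent of mitochondrial and ribosomal UMIs, module and cell cycle score values, cluster, class, phase and embedding position of each kept cell. Matrix sums equalled the table's counts for all 16822 cells (tolerance 0). Filters on cells, doublet removal and integration before deposit are not described there, and 9 columns of the table were not used.

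The members, gene lists and tests were chosen with earlier results of these data known. Named genes were the 3 markers, the 25 with the highest mean log2 ratio among genes with a UMI in at least 20% of the cells, the 10 lowest among genes with at least 100 CPM in other cells, list members, and genes called between AML and PBS. Other genes named were chosen after their values were seen. UMIs were summed per library and tested with edgeR 4.0.16 (TMM, filterByExpr, quasi-likelihood F test, Benjamini-Hochberg at 0.05) in R 4.3.3. DESeq2 1.42.0 was an alternative. The fits were tried on simulated data with log2 changes of 2 and of 3. The fit of AML against PBS recovered 53.7% and 67% of these, and the interaction fit 10.4% and 33.3%. The fit of Car1 against Car1-free barcodes recovered 41.7% and 59%. Many changes of these sizes would thus be missed. The outside-table comparison was added after seeing the data. Shares were compared by exact permutation over libraries, with Python 3.11.15 and scipy 1.17.1. Ratios to other cells used a pseudocount of 10 CPM. A doublet score from simulated pairs marked the highest 5% of cells, which an alternative left out. Gene positions are from GENCODE on GRCm38. Depth per library and the precision it gives stand beside the shares. Some genes that enter the counts are not reported here by name.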

Additional observations from a re-analysis of the deposited data

Results flagged for a closer look

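The AML effect in cluster 7 differed from that in the other kept cells for 64 genes in the edgeR interaction test over PBS replicates 1 and 3 and AML replicate 3. Given here, as the difference of log2 fold changes, are the 5 highest and 5 lowest among called genes that had a mean log2 CPM of at least 5 and did not overlap between PBS and AML within cluster 7. Mt2 was called too, at -2.20, and is not among these 10. Globins headed the positive side, with Hba-a1 at 7.684, Hba-a2 at 7.67, Hbb-bs at 7.668 and Hbb-bt at 4.364. Of the 1546 Hbb-bs UMIs of AML replicate 3 in the cluster, 1545 were in 3 cells. C77080 was at 4.205 (edgeR adjusted p 3.2e-05), with 3.44 and 8.54 CPM in PBS and 85.3 CPM in AML within cluster 7, which is 1, 3 and 12 UMIs, against 44.7 and 169 CPM in PBS and 72.3 CPM in AML in other cells.

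On the negative side, Ighm was at -5.804 and Igkc at -5.284, where 7041 of the 7052 Igkc UMIs of PBS replicate 3 were in 1 cell. Lgals1 was fitted at -14.377, which is no bound because AML replicate 3 had no UMI in cluster 7, while its other cells had 181 CPM against 62.1 and 78.3 CPM in PBS. Mt1 was at -2.379, lower in AML replicate 3 within cluster 7 and higher in that library's other cells, while AML replicate 1, which was not in the fit, had 1142 CPM in cluster 7 from 6 UMIs. In Car1 barcodes outside the authors' table Mt1 was not lower in AML replicate 3. It had 1213 CPM there against 545 and 1196 CPM in PBS replicates 1 and 3. Spc24, a subunit of the kinetochore complex that holds chromosomes to the spindle, was at -1.919 (edgeR adjusted p 0.016), with 182 and 122 CPM in PBS and 49.8 CPM in AML, against 104, 89.3 and 105 CPM in the other cells. As 1 AML library entered, the library and the treatment cannot be told apart for any of these.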

How the results depend on the processing

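Of the 11 genes called between AML and PBS, DESeq2 left 0 and the test without a filter on low counts 0, libraries with at least 1 cell gave 7, and removal of the 4 cells of over 100 globin UMIs gave 3. The replicate numbers are not known to pair the libraries, and with the replicate block (at least 1 cell) 1 gene was called. Leaving out each library in turn (at least 1 cell) gave 0 to 50. The 64 interaction calls became 24 with library size only, 9 with at least 1 cell, 104 without the globin-rich cells and 5 to 31 with a library left out (10 without PBS replicate 2 and 12 without AML replicate 1). The interaction fits with a library left out used libraries of at least 1 cell, so they compare with the 9 calls of that set. The 420 calls outside the table became 245 with at least 1 Car1 UMI, 152 with DESeq2 and 158 to 271 with a library left out. Directions turned for Car1 (0.11 without PBS replicate 1 and 0.07 without PBS replicate 3, at least 1 cell) and Igkc (0.27 without the highest doublet scores). They also turned for Hbb-bs (-2.95 without the globin-rich cells, and -9.31 with at least 1 cell and without AML replicate 3). Klf1 (0.02 with library size only, 0.08 with the block and at least 1 cell) and Gata1 (-0.12 with at least 1 cell and without AML replicate 3) turned as well. Without AML replicate 3 the AML side was the 2 cells of AML replicate 1. The share of cluster 7 ranged from -0.317 to 0.000308 percentage points with a library left out, and the share in S or G2M was -17.8 points with at least 1 cell. With a pseudocount of 1 CPM the log2 ratios were 5.75 for Klf1, 4.13 for Gata1 and 11.1 for Car1, and Car1 was at 8.99 in thinned cells. The causes were not tested beyond fewer cells, genes or libraries. With libraries of at least 5 cells, the replicate block and the leave-one-out fits could not be fitted, and no phase difference exists without AML replicate 3. Precision is limited by 21 AML cells in 1 library and by AML replicate 1 with 2.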
